A study of Rattus norvegicus with 12 samples.

Results

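The 7 genes described here, Pdgfra, Cspg4, Olig1, Olig2, Gpr17, Sox10 and Nkx2-2, are markers of oligodendrocyte precursor cells. They were chosen by name, and all 7 were found among the 18800 gene symbols of a table of estimated read counts from rat brain tissue. The study asked what electroacupuncture along the Lung Meridian does after cerebral ischemia-reperfusion, with synaptic plasticity as its stated interest. All animals were Sprague-Dawley rats, and rats of every group, controls included, were restrained, with equal degree and time stated for control and model. Controls received no electroacupuncture, and although the labels name no operation for them, their columns in the table are headed as sham. Model rats had middle cerebral artery occlusion with reperfusion (MCAO/R, the temporary blocking of a large brain artery) and restraint alone. Electroacupuncture rats had MCAO/R, restraint and needling with current at the Tianfu, Chize, Kongzui and Taiyuan points. Age, sex, brain region, side and the time after the operation were not given in the labels, nor do they tie samples to separate animals. The p-values therefore reflect only how much these samples vary, and part of that may be technical.

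Oligodendrocyte precursors are dividing glial cells spread through grey and white matter. They divide in response to platelet-derived growth factor, leave the cycle, pass through a short committed stage and then form myelinating oligodendrocytes, and they are known to respond to injury of the brain. Of the members, Pdgfra (the growth factor's alpha receptor) and Cspg4 (the NG2 proteoglycan) sit on the surface of early precursors, and Gpr17 is a receptor of the committed stage. Olig1, Olig2, Sox10 and Nkx2-2 are transcription factors of the lineage, and oligodendrocytes that make myelin keep several of them. Outside the lineage, fibroblasts of the vessel wall and meninges also use Pdgfra, and pericytes also use Cspg4.

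The table had 11 columns, and 3 pairs of columns of the same group differed by little more than sampling noise (1.34 to 1.4 times the sampling variance, against 4.75 to 26.5 times in the other 12 pairs within a group). Each such pair was counted as 1 sample, which left 3 control, 2 model and 3 electroacupuncture samples, named A, B and C within a group, with total counts of 9335929 to 23835795. For the members, 20 of the 21 differences between such paired columns were under 2 standard errors of counting, and the largest was 1.27-fold (Nkx2-2, 57 and 44 reads in model A). The samples also differed in genes of neuron types. Levels are given in CPM, reads of a gene per 1000000 reads of the sample after scaling by the TMM method. Summed over 12 hippocampal neuron genes, CPM values were 525 to 588 in controls, 180 to 204 in the model, 216 in electroacupuncture A and 476 to 479 in electroacupuncture B and C. Over 10 genes of striatal medium spiny neurons, electroacupuncture A reached 4871 CPM against 152 to 723 CPM in the other 7 samples. These levels stand beside every result below, and their part in the results was not tested.

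All 7 members were detected in all 8 samples and passed the filter on low counts. The least abundant in reads was Nkx2-2, with 28 to 196 reads per sample, and the most abundant Olig1, with 1636 to 5654. In bulk tissue, fewer cells of a type and less RNA per cell cannot be told apart, so a level here is that of the tissue.

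The early precursor receptors were higher in both MCAO/R groups than in controls, in estimate. Control samples A to C held 19.2, 21.4 and 25.8 CPM of Pdgfra, model samples A and B held 23.5 and 35.6, and electroacupuncture samples A to C held 36.7, 36.2 and 29.9, and values are listed in this sample order for every gene below. All electroacupuncture samples lay above all controls, while model A lay inside the control range and model B among the electroacupuncture samples. With scaling to total counts, both model samples lay above all controls (25.0 and 24.8 CPM at the nearest). The group means ordered as control (22.1 ± 3.4 CPM, SD, n = 3), model (29.5 ± 8.56, n = 2) and electroacupuncture (34.3 ± 3.77, n = 3), with overlap between neighbours in this order. Against controls, the log2 fold change of Pdgfra with electroacupuncture was 0.63 (SE 0.20, adjusted p = 0.843, edgeR quasi-likelihood test), and in the model it was 0.42 (SE 0.22, adjusted p = 0.442, edgeR). The model estimate rested on few samples, at 0.079 without model B and 0.68 without model A. Between electroacupuncture and model it was 0.22 (SE 0.23, edgeR adjusted p = 0.749), and this estimate was -0.053 without model A.

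Cspg4, whose product anchors precursors to matrix and growth factors, stood at 10.2, 8.98 and 14.8 CPM in the controls and at 17.0 and 22 CPM in the model samples. With electroacupuncture it stood at 39.0 CPM in sample A but at 16.6 and 14.9 CPM in B and C. Both model samples lay above every control. With electroacupuncture, sample C exceeded the highest control by little (14.87 and 14.84 CPM), and the order of these samples turned with scaling to total counts (14.09 and 14.26 CPM). The log2 fold change was 0.78 (SE 0.44, adjusted p = 0.458) for model against control and 1.05 (SE 0.40, adjusted p = 0.843) for electroacupuncture against control, both by edgeR. The latter was 0.47 without electroacupuncture A, and the difference between electroacupuncture and model went from 0.27 (SE 0.44, edgeR adjusted p = 0.857) to -0.30. Sample A also held the highest levels of vessel cell genes, with sums of 222 CPM for 12 mural cell genes (126 to 175 CPM in the other 7 samples) and 692 CPM for 9 endothelial genes (203 to 452 CPM). Its 12 cell cycle genes summed to 299 CPM, against 143 CPM in model A and 60.3 to 73.0 CPM in the other 6 samples. The part of these in the Cspg4 level was not tested.

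Gpr17, the receptor of precursors about to differentiate, was the one member of 7 whose 3 groups did not overlap with each other, as was so for 2.1% of all genes in any order of the groups. It stood at 5.77, 6.59 and 6.05 CPM in the controls, at 4.98 and 3.94 CPM in the model samples and at 8.24, 11.8 and 12 CPM with electroacupuncture. The model was lowest, the controls between and electroacupuncture highest. This order held with scaling to total counts. Its read numbers were small, at 58 to 277 per sample. From model to electroacupuncture the level was 2.39-fold higher (95% interval 1.55 to 3.70, log2 fold change 1.26, SE 0.27), which did not pass over all genes (edgeR adjusted p = 0.143). Against controls the electroacupuncture level was 1.74-fold (95% interval 1.19 to 2.54, edgeR adjusted p = 0.843) and the model level 0.728-fold (0.474 to 1.12, edgeR adjusted p = 0.473). In the 8 fits that each left out 1 sample, the log2 difference between electroacupuncture and model was 1.10 to 1.44, and the edgeR adjusted p was 0.0402 without electroacupuncture A and up to 0.330 in the others.

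Olig2, which sets the oligodendrocyte fate and is needed in precursors, was near equal in controls and model and higher with electroacupuncture, in estimate. Values were 35.4, 43.7 and 52.9 CPM in the controls, 42.4 and 40.8 CPM in the model samples and 74.9, 64.5 and 66.8 CPM with electroacupuncture. Every electroacupuncture sample lay above all 5 others, and the model samples lay inside the control range. The electroacupuncture level was 1.65-fold that of the model (95% interval 1.22 to 2.23, log2 fold change 0.72, SE 0.19, edgeR adjusted p = 0.181) and 1.56-fold that of controls (1.2 to 2.04, edgeR adjusted p = 0.843). For model against control the log2 fold change was -0.08 (SE 0.18, edgeR adjusted p = 0.872), and it took the other sign with total counts (0.033) and without control C (0.085).

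Olig1, the paralog that promotes maturation of the lineage, is the next gene to Olig2 on the same chromosome in the RefSeq annotation. It stood at 150.0, 209 and 233 CPM in the controls, at 174 and 158 CPM in the model samples and at 209, 240.4 and 267 CPM with electroacupuncture. All electroacupuncture samples lay above both model samples, but sample A was at the level of control B. With scaling to total counts, all 3 also lay above every control (235 and 224 CPM at the nearest). The log2 fold change was 0.53 for electroacupuncture against model (SE 0.22, adjusted p = 0.362), 0.28 for electroacupuncture against control (SE 0.20, adjusted p = 0.843) and -0.25 for model against control (SE 0.22, adjusted p = 0.631), each by edgeR. The last was -0.10 without control C and -0.41 without control A.

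Sox10 and Nkx2-2 did not separate the groups. Sox10, which drives myelin genes and stays on in mature oligodendrocytes, stood at 60.8, 68.9 and 109.6 CPM in the controls, 75.2 and 51.9 CPM in the model and 72.9, 120.2 and 73.2 CPM with electroacupuncture. Nkx2-2, a homeobox factor at the start of differentiation, stood at 4.22, 4.78 and 7.51 CPM in the controls, 5.41 and 3.17 CPM in the model and 5.64, 8.33 and 2.95 CPM with electroacupuncture. For both genes the highest sample was electroacupuncture B, the next was control C, and all 3 groups overlapped. Their log2 fold changes for electroacupuncture against model were 0.48 (SE 0.34, edgeR adjusted p = 0.612) for Sox10 and 0.40 (SE 0.49, edgeR adjusted p = 0.793) for Nkx2-2. Against controls the estimates were 0.16 and 0.047 with electroacupuncture and -0.33 and -0.36 in the model (edgeR adjusted p = 0.901, 0.985, 0.691 and 0.771). Without electroacupuncture B, the difference from the model was 0.19 for Sox10 and -0.0019 for Nkx2-2, and that from controls was -0.13 and -0.35. For model against control, the estimate ranged from -0.62 to -0.018 for Sox10 (nearest 0 without control C) and from -0.80 to -0.031 for Nkx2-2 (nearest 0 without model B) when 1 sample was left out.

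**Figure D1:**
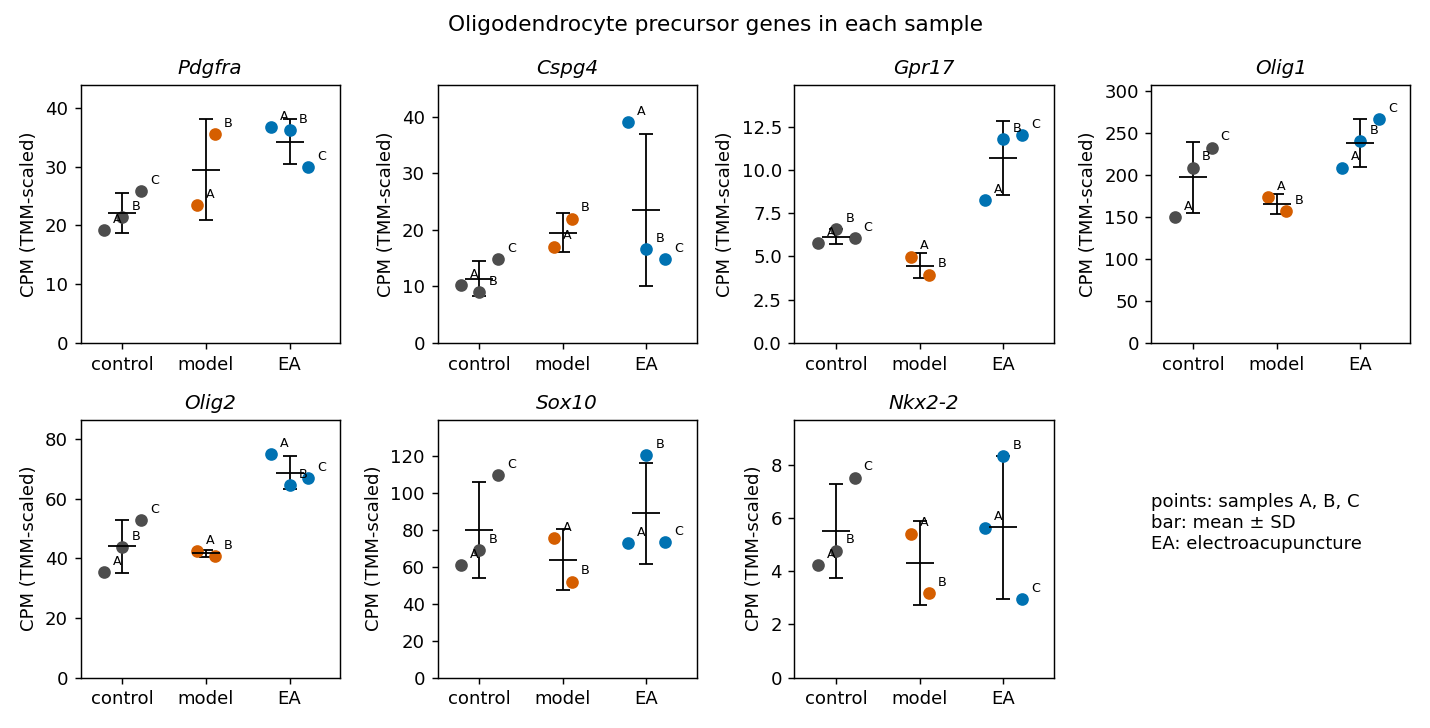
Level of each member in CPM (reads per 1000000 after TMM scaling, axis from 0) in the 3 control, 2 model and 3 electroacupuncture (EA) samples. Points are samples with their letters, and bars give the mean ± SD. Gpr17 is lowest in the model and highest with electroacupuncture, Olig2 is highest in all 3 electroacupuncture samples, and the high Cspg4 mean with electroacupuncture comes with sample A at 39.0 CPM.

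Model against control asked what MCAO/R did. In estimate, 2 of the 7 members were higher in the model (Pdgfra and Cspg4) and 5 were lower, against 51.5% of all 15485 tested genes higher. The members' median log2 fold change was -0.25 and that of all genes 0.02. None passed edgeR's test (adjusted p under 0.05), as did 0.00646% of all genes, and none had an unadjusted p under 0.05, against 13.8% of all genes. The 2 model samples lay above every control for Cspg4, as for 18.2% of all genes, and below every control for Gpr17, as for 19.6%. No member passed with DESeq2, which called 5.1% of genes, or when all 11 columns entered edgeR as separate libraries, which called 7.37%. Relative to TMM scaling, total counts moved the median of all genes by 0.11 in this comparison.

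Electroacupuncture against model asked what the treatment changed after MCAO/R. All 7 members were higher in estimate, against 53.3% of all genes, with a median log2 fold change of 0.48 (0.03 over all genes). The largest estimates were those of Gpr17, Olig2 and Olig1. These 3 members also lay higher in every electroacupuncture sample than in both model samples, as did 12.9% of all genes, and had an unadjusted edgeR p under 0.05, as did 13.5%. With edgeR's adjusted p, 0 members passed and 0% of all genes. DESeq2 called Gpr17 (adjusted p = 0.0025) and Olig2 (adjusted p = 0.0237) as higher, where it called 4.53% of all genes. With all 11 columns as separate libraries, edgeR called Gpr17 (adjusted p = 0.00317), Olig2 (0.00751) and Olig1 (0.0367), and 10.9% of all genes, but that fit counts the paired columns as independent samples. Pdgfra and Cspg4 were higher by 0.22 and 0.27 on the log2 scale, and each turned direction without 1 sample, as given above.

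Electroacupuncture against control set the treated rats beside the control group and shares its treated samples with the comparison before it and its controls with the first. Again all 7 members were higher in estimate, against 50.7% of all genes, with a median log2 fold change of 0.63 (0.01 over all genes). Pdgfra, Cspg4, Olig2 and Gpr17 lay above every control in every electroacupuncture sample, as did 5.97% of all genes, and the same 4 had an unadjusted edgeR p under 0.05, as did 3.67%. By size of p, Olig2 ranked 15 and Gpr17 39 of the 15485 genes, followed by Pdgfra at 75 and Cspg4 at 275. No member passed after adjustment in edgeR (0% of all genes), in DESeq2 (0.0054%) or with all columns as separate libraries (0%). The interval for Sox10 ran from 0.685-fold to 1.81-fold and that for Nkx2-2 from 0.508-fold to 2.10-fold, so differences within these ranges were not excluded.

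**Figure D2:**
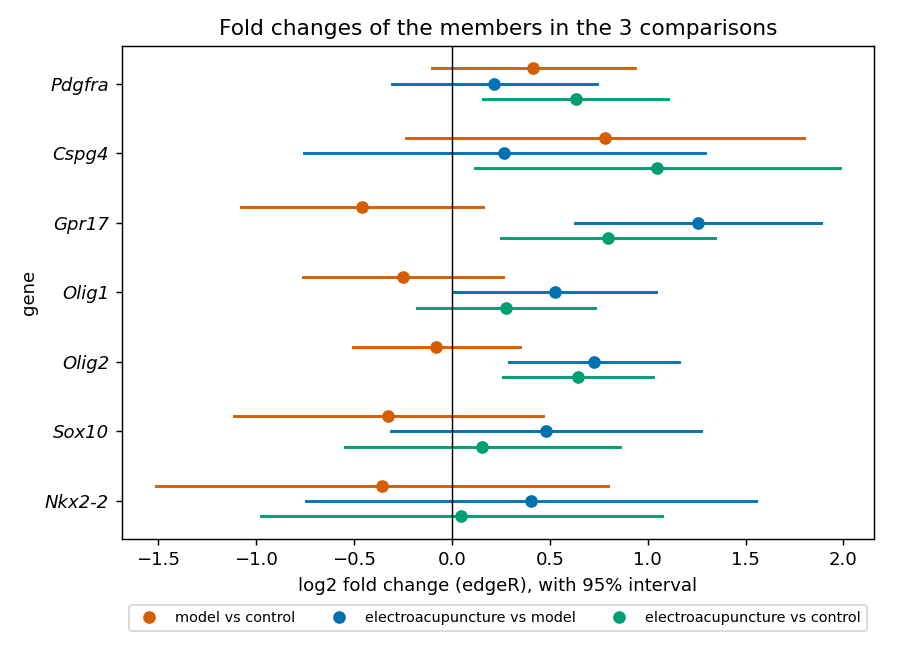
Log2 fold change of each member from edgeR (points) with its 95% interval (lines) for model against control, electroacupuncture against model and electroacupuncture against control; the line at 0 marks no difference. For Gpr17 and Olig2, both intervals with electroacupuncture lie above 0, and for Sox10 and Nkx2-2 all 3 intervals cross 0.

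The promoters of Gpr17 and Olig2, the pair with the largest fold changes between electroacupuncture and model, are shown with that of Pdgfra, which had a different order of samples. Entries for 5 of the 7 members were matched by symbol in a RefSeq table of assembly GRCr8, while Olig1 and Sox10 were not matched. Each line gives the 250 bases before the annotated start, 5′ to 3′ on the gene's strand, at chr18:23857382-23857631 (minus strand) for Gpr17, chr11:43961335-43961584 (plus strand) for Olig2 and chr14:33408517-33408766 (minus strand) for Pdgfra. Capitals mark a match to CANNTG, the E-box core that basic helix-loop-helix proteins such as Olig1 and Olig2 bind.
Gpr17: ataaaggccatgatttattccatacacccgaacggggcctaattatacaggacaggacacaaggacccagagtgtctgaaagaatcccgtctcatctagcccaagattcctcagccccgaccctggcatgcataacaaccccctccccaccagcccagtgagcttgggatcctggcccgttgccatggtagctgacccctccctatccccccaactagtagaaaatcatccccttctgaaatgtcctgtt
Olig2: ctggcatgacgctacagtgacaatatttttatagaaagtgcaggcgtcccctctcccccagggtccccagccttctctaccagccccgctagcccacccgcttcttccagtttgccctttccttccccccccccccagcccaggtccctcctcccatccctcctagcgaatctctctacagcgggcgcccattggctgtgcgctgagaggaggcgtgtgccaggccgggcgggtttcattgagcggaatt
Pdgfra: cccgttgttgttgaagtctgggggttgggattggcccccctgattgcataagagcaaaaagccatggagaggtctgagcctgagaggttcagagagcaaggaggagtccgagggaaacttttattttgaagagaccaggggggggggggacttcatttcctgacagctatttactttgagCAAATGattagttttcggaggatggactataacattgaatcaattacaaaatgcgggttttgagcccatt
Of the 5 members, Pdgfra had 1 E-box match, CAAATG at 70 bases before the start, and the other 4 had 0 in this window, where 65.5% of 33469 promoter windows of the same length held at least 1. ACAAAG and ACAATG, cores that SOX proteins bind, were searched on both strands and had no match in the 5 windows, against 16.3% and 11.1% of all windows. The G and C content was 53.2% for Gpr17, 62% for Olig2 and 47.2% for Pdgfra.

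Ratios of 2 members within a sample do not depend on how samples are scaled to each other, and they are given as values without a test. Gpr17 reads per 100 Pdgfra reads numbered 30.1, 30.9 and 23.4 in the controls, 21.2 and 11.1 in the model samples and 22.5, 32.5 and 40.1 with electroacupuncture. The model samples were thus the lowest of the 8, with electroacupuncture A close above model A. Olig1 reads per Olig2 read were 4.24, 4.79 and 4.41 in the controls, 4.11 and 3.86 in the model and 2.79, 3.72 and 4.0 with electroacupuncture. All controls lay above all model and electroacupuncture samples in this ratio, and the lowest value was that of electroacupuncture A. The gap was narrow, with 4.24 in control A and 4.11 in model A. Of the 2 columns summed as model A, 1 held 1636 Olig1 and 385.8 Olig2 reads, against 1636 and 385.7 in control A. These reads are not scaled for depth: by total counts they were 185 and 43.7 CPM, against 146 and 34.5 CPM in control A. The other column of model A held 1617 and 406.5 reads. Cspg4 reads per Pdgfra read were 0.420 to 0.574 in the controls, 0.726 and 0.618 in the model, 1.06 in electroacupuncture A and 0.459 and 0.496 in B and C. Both model samples and electroacupuncture A, the 3 samples with low hippocampal genes, had the highest values. Nkx2-2 reads per 100 Olig2 reads ranged from 10.9 to 14.2 in controls and from 4.42 to 12.9 with electroacupuncture, so these overlapped. The model samples, at 12.8 and 7.79, overlapped with both groups. The lowest value, in electroacupuncture C, came from only 28 Nkx2-2 reads.

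**Figure D3:**
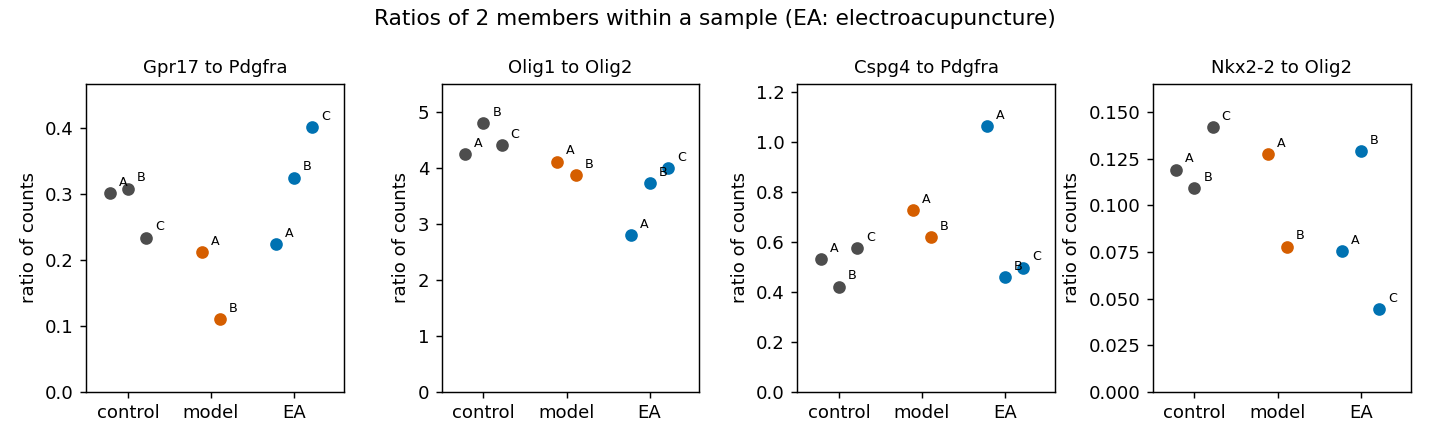
Ratios of read counts of 2 members within each sample (axis from 0, not corrected for gene length), for the control, model and electroacupuncture (EA) groups, points labelled by sample. Gpr17 to Pdgfra is lowest in the 2 model samples, Olig1 to Olig2 is highest in the 3 controls with model A close below, and Cspg4 to Pdgfra is highest in electroacupuncture A at 1.06.

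A further 20 genes of precursors were taken from textbook knowledge, of which 19 were in the table and tested. In the model 14 were higher and 5 lower than in controls (median log2 fold change 0.39), and with electroacupuncture 15 were higher and 4 lower than in controls (0.30). Between electroacupuncture and model they split into 9 higher and 10 lower. edgeR called 0 of them in any comparison, with 6, 5 and 5 at an unadjusted p under 0.05 for model against control, electroacupuncture against model and electroacupuncture against control. DESeq2 called 5, 3 and 0. For these comparisons in this order, 13.8%, 13.5% and 3.67% of all genes had an unadjusted edgeR p under 0.05. DESeq2 called 5.1%, 4.53% and 0.0054% of all genes. The same shares stand beside the counts of the lists below. Sox5, a repressor of precocious differentiation that neurons of the neocortex also use, had a control mean of 13.7 ± 0.310 CPM (SD, n = 3), a model mean of 34.9 ± 7.11 CPM (n = 2) and an electroacupuncture mean of 17.9 ± 1.5 CPM (n = 3). Its log2 fold change was 1.35 for model against control (SE 0.17, edgeR adjusted p = 0.0845) and -0.97 for electroacupuncture against model (SE 0.17, edgeR adjusted p = 0.136). On average over 10 neocortical neuron genes, the log2 difference from the control mean was 0.54 and 1.19 in the model samples and -0.04 to 0.24 in the other 6. Their part in the Sox5 level was not tested.

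Of 18 genes of differentiating and newly formed oligodendrocytes, 13 were lower in the model than in controls (median log2 fold change -0.25) and 16 were higher with electroacupuncture than in the model (0.48). By sample this was uneven: the list's mean log2 difference from the control mean was -0.02 and -0.38 in the model samples and 0.0056, 0.35 and 0.20 with electroacupuncture, against -0.16 to 0.25 among controls. edgeR called 0 in either comparison, with 1 and 3 at an unadjusted p under 0.05. DESeq2 also called 0 in both, and edgeR on all 11 columns called 0 and 3. Enpp6, an enzyme of newly formed oligodendrocytes, measured 5.14 ± 1.12, 4.10 ± 1.55 and 7.15 ± 1.31 CPM (SD) in controls, model and electroacupuncture. Myrf, the factor that switches on myelin genes, measured 149 ± 40.9, 106 ± 13.0 and 172 ± 19.2 CPM, and Nkx6-2, a homeobox factor of myelinating cells, 20.9 ± 9.82, 11.1 ± 3.66 and 26.2 ± 6.10 CPM. These 3 were, with Gpr37, the 4 genes of the list with the smallest p between electroacupuncture and model (mean of at least 1 CPM). Over the whole list, 6 of 18 genes were higher in every electroacupuncture sample than in both model samples, as were 12.9% of all genes, and 1 of 18 was lower.

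Of 17 tested myelin genes, 16 were lower in the model than in controls (median log2 fold change -0.70) and 16 higher with electroacupuncture than in the model (1.07), beside -0.25 and 0.48 for the precursor members. Between electroacupuncture and control the myelin median was 0.30 and that of the members 0.63. No myelin gene passed edgeR in either comparison, with 2 and 9 at an unadjusted p under 0.05, while DESeq2 called 0 and 2. Fa2h, which makes hydroxylated myelin lipids, averaged 25.5 ± 8.43 and 62.8 ± 29.2 CPM in these groups, and Gjb1, a gap junction protein of oligodendrocytes, 8.52 ± 4.47 and 21.1 ± 8.89 CPM. Averaged over the list as a log2 difference from controls, myelin genes gave -0.28 and -1.17 for the model samples and -0.16, 0.61 and 0.26 for electroacupuncture A to C. On the same scale the 7 members gave 0.03 and -0.09 in the model samples and at 0.55, 0.62 and 0.29 with electroacupuncture. In electroacupuncture A the mean of the members was therefore above all controls (-0.25 to 0.31) and that of myelin genes inside the control range (-0.38 to 0.37). Singly, Pdgfra, Cspg4, Olig2 and Gpr17 lay above every control in this sample, with Cspg4 at a log2 difference of 1.80. Olig1 (209 CPM), Sox10 (72.9 CPM) and Nkx2-2 (5.64 CPM) lay below control C (233, 109.6 and 7.51 CPM).

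Signals that act on precursors were counted in 2 lists. Of 19 tested growth factor ligands and receptors, 13 were higher in the model than in controls and 12 higher with electroacupuncture than in the model. edgeR called 0 in both comparisons, with 4 at an unadjusted p under 0.05 in each, and DESeq2 called 3 and 2. Pdgfa, the main ligand of the Pdgfra receptor on precursors and named here for that after its values were seen, had means of 54.7 ± 6.6, 61.3 ± 3.60 and 47.0 ± 12.1 CPM in controls, model and electroacupuncture. It was lowest in electroacupuncture A, at 33.1 CPM, the sample with the highest Pdgfra level (36.7 CPM, against 36.2 CPM in electroacupuncture B). Pdgfb, a further gene of this list, was instead highest in that sample, at 11.97 CPM against 1.82 to 7.51 CPM in all others. Its log2 fold change for electroacupuncture against model was 1.35 (SE 0.57, edgeR adjusted p = 0.366). Igf1, a survival and differentiation factor that microglia also make, stood at 48.4 and 16 CPM in the model samples, and averaged 11 ± 1.94 CPM in controls and 12.5 ± 1.49 CPM with electroacupuncture. Nrg1, a neuronal ligand for the lineage, measured 20.6 ± 4.10, 47.0 ± 4.04 and 21.7 ± 5.61 CPM in controls, model and electroacupuncture (electroacupuncture against model: log2 fold change -1.12, SE 0.25, edgeR adjusted p = 0.158). Fgfr1, a receptor for fibroblast growth factors, went the other way at 108 ± 12.4, 51.1 ± 15.7 and 94.8 ± 20.1 CPM.

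Of 32 tested regulators of differentiation in the Notch, BMP, Wnt and hedgehog pathways and among chromatin factors, 17 were higher in the model than in controls and 19 higher with electroacupuncture than in the model. edgeR called 0 in both, with 8 and 6 at an unadjusted p under 0.05, and DESeq2 called 3 and 2. Hey1, a target gene of Notch signalling, averaged 4.19 ± 0.578, 2.11 ± 0.351 and 6.53 ± 1.63 CPM in controls, model and electroacupuncture. Smo, the signal transducer of the hedgehog pathway, measured 8.50 ± 1.58, 2.24 ± 1.15 and 7.51 ± 1.66 CPM.

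Fibroblasts and mural cells of vessels use some of the same genes as precursors. Summed over 12 fibroblast and meningeal genes, levels were 167 to 319 CPM in controls, 144 to 322 CPM in the model and 183 to 226 CPM with electroacupuncture, so the groups overlapped. Of these genes 9 of 12 were higher in the model than in controls, in estimate, and 3 of 12 higher with electroacupuncture than in the model. None of these genes was at 0 in every sample of a group, although Col1a2 had no reads in 3 samples. Model B, with 35.6 CPM of Pdgfra, held the lowest fibroblast sum (144 CPM), with a median log2 difference from controls of -0.24 over the list, against 0.75 in model A. The part of fibroblast genes in the Pdgfra level was not tested. For the 12 mural cell genes the model samples stood at 140.0 and 140.3 CPM, inside the control range of 128 to 172 CPM, while Cspg4 lay above every control in both. Of the mural genes 5 of 12 were higher in the model than in controls and 10 of 12 higher with electroacupuncture than in the model, in estimate. Summed over 12 microglial genes, the model and electroacupuncture samples (355 to 986 CPM) lay above the controls (272 to 350.4 CPM). The gap was narrow between electroacupuncture C (354.7 CPM) and control C (350.4 CPM). Of the 12 genes, 7 lay above every control in both model samples (18.2% of all genes) and 1 in every electroacupuncture sample (5.97%). Electroacupuncture A had the highest sum. Neuron genes were lowest in the same sample, at 3407 CPM over 10 genes against 5379 to 9646 CPM in the other 7 samples.

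**Figure D4:**
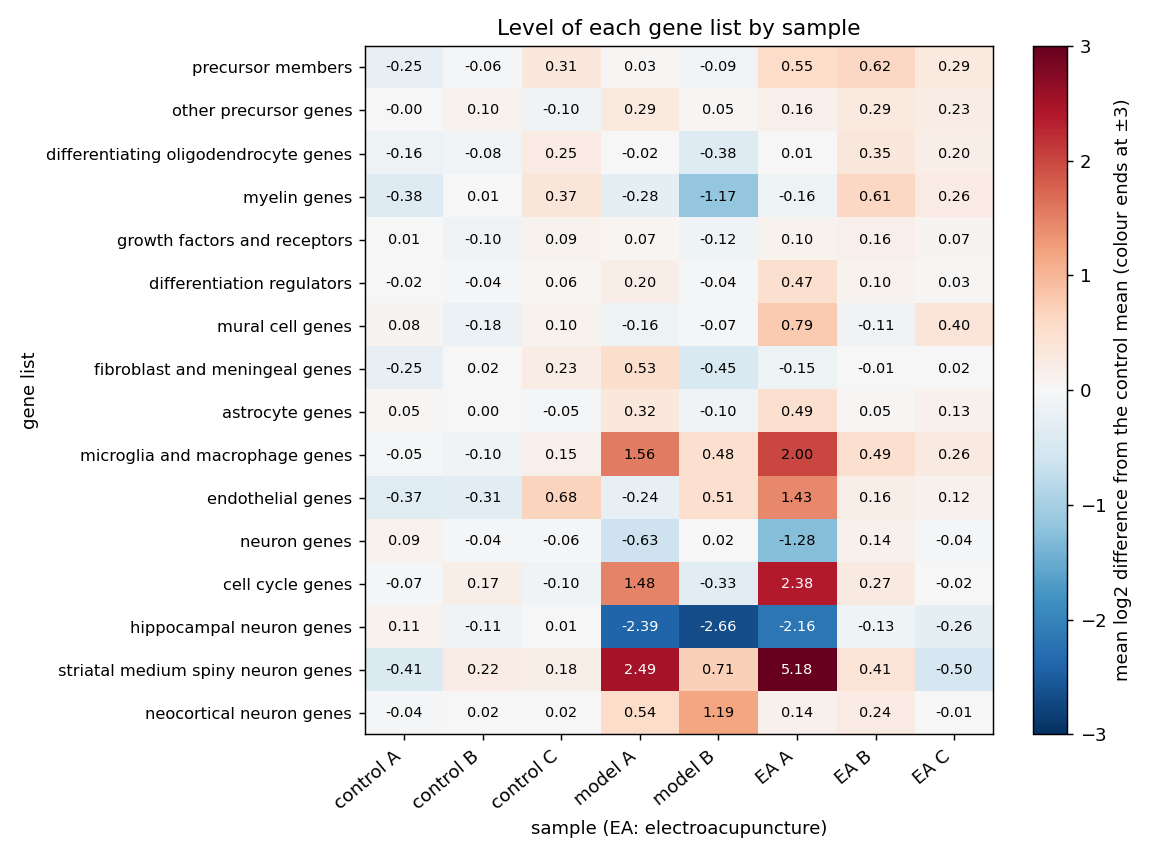
Mean log2 difference from the control mean for each gene list (rows) in each sample (columns), with the value printed in each cell and colour ending at ±3. The 7 precursor members are above 0 in all electroacupuncture (EA) samples, at 0.29 to 0.62, while hippocampal genes are low in both model samples and in EA A, and striatal genes reach 5.18 in EA A; control C is also above 0 for the members, at 0.31.

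The genes whose levels over the 8 samples were most like the mean of the members were Npc1 (Pearson's r of 0.98), Snx33, Ppfibp2, Prima1, Myo1d, Ninj2, RGD1359508 and Galnt6 (0.94), out of 14807 tested genes that averaged 1 CPM or more. Npc1 encodes a lysosomal cholesterol transporter. The gene most like each member was Washc5 for Pdgfra, Skp2 for Cspg4, LOC361016 for Olig1, Npc1 for Olig2, Hyls1 for Gpr17, Sgk2 for Sox10 and LOC103690642 for Nkx2-2, with r of 0.93 to 0.99. Skp2 degrades a cell cycle inhibitor, and sample electroacupuncture A, highest in Cspg4, was also highest in cell cycle genes. These values of r come from 8 samples of 3 groups that share library preparation but differ in hippocampal and striatal genes, as given above. The part of those differences in r was not tested, and the values are given as a description.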

How the data were processed

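Libraries from poly(A) RNA were strand-marked and had adapters with unique molecular identifiers, per the labels' protocols. The deposited values are expected counts (estimated reads per gene symbol with up to 2 decimals) without normalization. The submitters' processing notes name, with no roles, DESeq2 1.16.1, featureCounts 1.5.0-p3, HISAT2 2.0.5 and StringTie 1.3.3b. The sources used here do not give the genome build, the handling of shared reads or any removal of duplicates, so counts of close paralogs are uncertain. Column names show the group but not the labelled sample. The 3 sham columns were taken as the control group, which has 4 labelled samples.

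The 4 symbols on 2 rows were summed. Columns of 1 group that differed by under 2 times the sampling variance (over genes whose 2 counts sum to 20 or more) were summed as 1 sample, and values were then rounded. edgeR 4.0.16 in R 4.3.3 fitted all 8 samples at once (TMM, default filter by group, robust quasi-likelihood F test, two-sided, 5 residual degrees of freedom, Benjamini-Hochberg over 15485 genes). Standard errors came from the F statistic, and intervals are at 95%. CPM used TMM scaling. Log2 levels per sample used a prior count of 2. Total counts give small counting error next to the spread between samples, except for members with few reads. DESeq2 1.42.0, total counts, 2 other filters, fits of 2 groups, all columns as separate libraries and leaving out each sample were alternatives. The scripts were tested on simulated data. Members and lists were chosen with earlier results of these data known, so no test was made over a list. From the lists, genes were named from among the 4 of a list with the smallest p between electroacupuncture and model and a mean of at least 1 CPM. Some of these 4 were left unnamed, such as Mag, Mog and Gpr37. Pdgfa and Col1a2 were named outside this rule. Genes like the members were the 8 with the highest Pearson correlation.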

Additional observations from a re-analysis of the deposited data

How the results depend on the processing

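No paired analysis was possible because the columns carry group names other than the sample titles, so that no column can be tied to a numbered sample. With 2 model samples, each fit without 1 of them leaves a lone sample that is assumed to vary like the other groups.

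The count of genes called over the whole table depended on the processing. For model against control it was 1 in the reported fit, 1129 with all columns as separate libraries, 798 with DESeq2, 0 with total counts, 294 with the 2 groups alone and 0 to 565 without 1 sample. For electroacupuncture against model it was 0 in the reported fit, 1666, 709 and 0 to 308 in the fits with all columns, with DESeq2 and without 1 sample, and for electroacupuncture against control DESeq2 called 1. Members called for electroacupuncture against model numbered 0 in the reported fit, 3 with all columns, 2 with DESeq2 and 0 to 1 without 1 sample (Gpr17, without electroacupuncture A). The cause of these differences was not tested.

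The members' median log2 fold change was -0.41 to -0.018 without 1 sample for model against control and 0.46 to 0.75 for electroacupuncture against model. Of the values of single members under an alternative, 278 kept direction and side of the threshold, 6 passed it and 10 turned direction. For model against control, Olig2 was 0.033 with total counts and -0.21 to 0.085 without 1 sample (turned without control C). For electroacupuncture against model, leaving out 1 sample gave -0.053 to 0.55 for Pdgfra (turned without model A), -0.30 to 0.51 for Cspg4 (without electroacupuncture A) and -0.0019 to 0.84 for Nkx2-2 (without electroacupuncture B). For electroacupuncture against control it gave -0.13 to 0.46 for Sox10 (without electroacupuncture B or control A) and -0.35 to 0.36 for Nkx2-2 (without electroacupuncture B, control A or control B). Depth limits Nkx2-2 and Gpr17, whose lowest counts were 28 and 58 reads.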
